A study of Rattus norvegicus with 5 samples.

Results

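Rat vascular smooth muscle cells pretreated with estradiol and then kept under hypoxia were compared with the same kind of cells kept under hypoxia alone, across 8810 of the 16881 gene symbols in the deposited tables. A gene was included when its mean level over all 5 libraries of the study was at least 100 on a linear scale, with 1 row per symbol and without ribosomal RNA rows. Neither the estradiol library alone nor the difference was used to choose genes, but all 5 libraries entered the mean. Of the genes nearest to this limit, Zfp418 had a mean of 100.03 and an E2 minus hypoxia difference (log2) of -0.06, and Acvr1b, just left out, had a mean of 99.9 and a difference of -0.14. Trim43a, also just left out with a mean of 99.8, was at 193 in hypoxia and 47.9 with E2 (log2 -1.99, interval -2.51 to -1.52), farther below hypoxia than every included gene but LOC310926.

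The study measured RNA in 5 libraries of these cells, which form the contractile layer of the vessel wall, grown in DMEM/F12 medium on coated plastic. One library was a control for which the labels name neither hypoxia nor a compound, and another came from cells kept under hypoxia for 24 h. The other 3 came from cells that met the same 24 h of hypoxia after pretreatment with E2 (10 nM), DPN (0.1 µM) or In-Cl (0.1 µM). E2 is estradiol, the main natural estrogen, DPN is an agonist that prefers estrogen receptor beta, and the title of the series calls In-Cl an indazole. The sources used here do not give the strain or sex of the animals, the vessel, the oxygen level, the length of pretreatment or any solvent used for the control and hypoxia cells. Each condition had 1 library, so replicate error is unknown, no p-value can be had, and each statement holds for these libraries.

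Estradiol enters cells and binds estrogen receptors, which act as transcription factors at estrogen response elements in DNA, together with coactivators and corepressors, and which also signal from the membrane. In vascular smooth muscle it is known for effects on growth, on vessel tone and on the making of prostanoids, the lipid mediators derived from arachidonic acid. Hypoxia acts mainly through the HIF transcription factors, which turn on genes of sugar breakdown, oxygen delivery and collagen processing.

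Each level is an adjusted read count, 2 to the power of the deposited log2 value, minus 1. Differences are E2 minus hypoxia between deposited values, log2 of the adjusted read count + 1, so positive values are higher with E2. The 5 libraries held about 20173080 (E2) to 24852072 (control) reads, with 22139031 in hypoxia. For each gene a 95% counting interval was computed as the exact Clopper-Pearson interval of the E2 share of its reads in this pair of libraries. It covers counting error only, since reads that carry no molecular identifiers may be copies of one molecule. Ribosomal RNA rows made up 3.44% of the summed level with E2 and 4.56% in hypoxia, with 3.65% to 4.67% in the other 3 libraries. All 10 smooth muscle markers were above 3 reads in at least 1 library, and their summed level was 409503 with E2 and 425632 in hypoxia, against 336596 to 367489 in the other 3. The summed level of 10 endothelial markers was 461 to 565, of 10 leukocyte markers 214 to 271 and of 9 fibroblast markers 3243 to 4790. In RNA from a whole culture, fewer cells of a type and less RNA per cell cannot be told apart.

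The promoters of 4 genes whose levels were far apart between E2 and hypoxia are shown, since estrogen receptors act through defined elements in DNA. They were taken from RefSeq on build GRCr8 and run from 250 bases before to 50 bases after the annotated start, 5′ to 3′ on the strand of the gene. Capitals mark AGGTCA, a single arm of the estrogen response element, or TGACCT where it lies on the other strand. Cbr1 (chr11:46346155-46346454, plus strand) holds no such arm and is shown as the abundant characterised gene farthest from hypoxia. Cnnm1 (chr1:252245373-252245672, plus strand), Notch4 (chr20:4189023-4189322, minus strand) and Ankrd16 (chr17:71658328-71658627, minus strand) are shown because each holds one.
Cbr1: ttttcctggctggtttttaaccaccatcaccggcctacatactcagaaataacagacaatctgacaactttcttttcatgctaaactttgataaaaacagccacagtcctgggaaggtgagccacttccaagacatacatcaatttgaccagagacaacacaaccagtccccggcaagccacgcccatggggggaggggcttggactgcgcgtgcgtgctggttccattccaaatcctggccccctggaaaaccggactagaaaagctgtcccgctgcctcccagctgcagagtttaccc
Cnnm1: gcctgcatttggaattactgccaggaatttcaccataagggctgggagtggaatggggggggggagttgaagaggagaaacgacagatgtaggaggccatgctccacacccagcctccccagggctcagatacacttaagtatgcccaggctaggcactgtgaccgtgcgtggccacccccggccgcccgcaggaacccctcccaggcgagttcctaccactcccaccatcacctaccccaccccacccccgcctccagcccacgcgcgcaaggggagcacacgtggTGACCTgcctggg
Notch4: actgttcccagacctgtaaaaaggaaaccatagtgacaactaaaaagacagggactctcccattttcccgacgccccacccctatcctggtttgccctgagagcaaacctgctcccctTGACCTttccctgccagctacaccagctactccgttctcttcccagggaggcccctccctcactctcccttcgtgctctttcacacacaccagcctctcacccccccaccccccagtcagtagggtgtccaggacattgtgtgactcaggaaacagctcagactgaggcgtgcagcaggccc
Ankrd16: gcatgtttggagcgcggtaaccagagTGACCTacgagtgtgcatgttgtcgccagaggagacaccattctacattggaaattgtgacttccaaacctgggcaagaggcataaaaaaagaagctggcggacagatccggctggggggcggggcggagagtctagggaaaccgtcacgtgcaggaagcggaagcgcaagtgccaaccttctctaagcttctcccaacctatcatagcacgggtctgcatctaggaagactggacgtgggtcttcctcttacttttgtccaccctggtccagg

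Matching by symbol found promoters for 6834 of the 8810 genes. The full estrogen response element, GGTCA and TGACC on either side of 3 free bases, was in 0 of these 6834 windows and in 9 of all 33469 promoters of the table (0.0269%). The single arm AGGTCA, searched on both strands, was in 749 of the 6834 (11.0%), against 16.2% of all promoters. It was in 26 of the 265 promoters found for genes at least 25% higher with E2 (9.81%) and in 33 of the 224 found for genes at least 20% lower (14.7%). Of the 39 genes chosen for the size of their difference, 30 had a promoter in the table and 3 of these held it. A match describes the letters in this window, and the absence of one says nothing of sites elsewhere.

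E2 and hypoxia gave similar profiles, with a minority of genes standing apart. The median difference over the 8810 genes was 0.002 and the SD over genes was 0.185. At least 25% higher with E2 were 354 genes (4.02%), and 293 were at least 20% lower (3.33%), the same fold in the other direction. At 1.5-fold, 45 genes were higher (0.511%) and 46 lower (0.522%). A 2-fold difference was reached by 1 gene above, Adam11, and by 6 below, LOC310926, Cnnm1, Notch4, Entpd7, Myh4 and Myh8. The counting interval lay above 0 for 1417 genes (16.1%) and below 0 for 1373 (15.6%). In the plot of difference against level the scatter narrows as the level grows, and 199 of the 354 higher and 197 of the 293 lower genes were in the lowest of 4 equal groups by mean level.

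**Figure D1:**
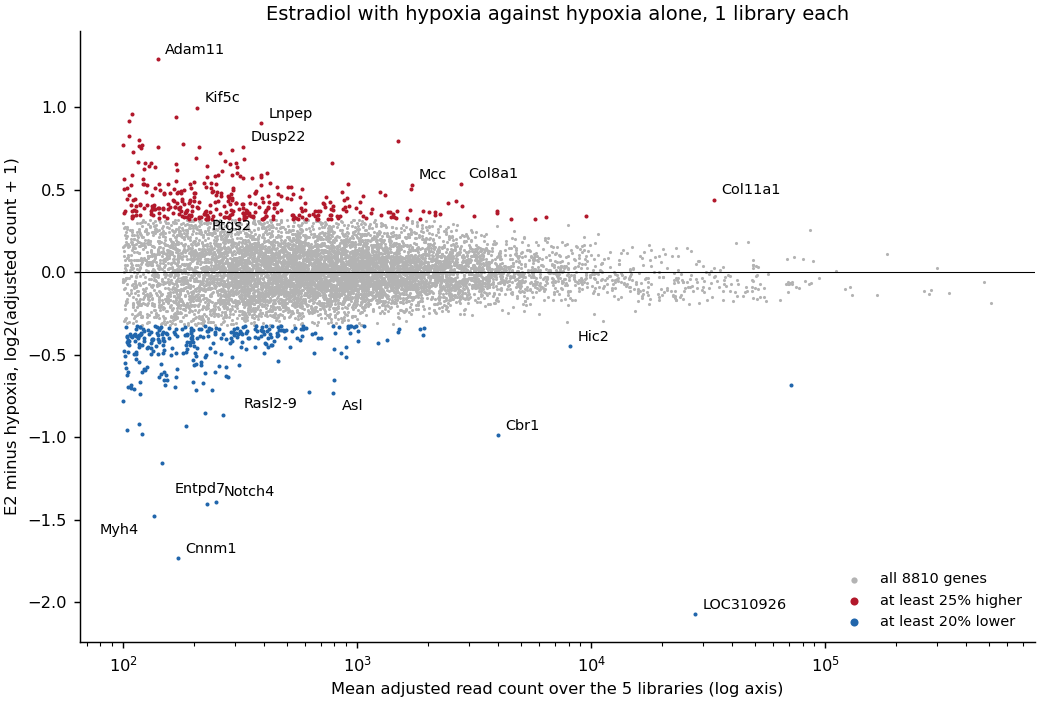
Each point is 1 of 8810 genes, with the mean adjusted read count over 5 libraries on a log axis and the E2 minus hypoxia difference on the vertical axis, 1 library a side. Red points are the 354 genes at least 25% higher and blue points the 293 at least 20% lower. Cbr1, at -0.99, stands alone among genes of its level.

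Choosing genes by E2 against hypoxia favours those where either library is at an edge of the 5, so the following positions are a description. Among the 354 higher genes, hypoxia was the lowest of the 5 libraries for 192 and E2 the highest for 141. Among the 293 lower genes, hypoxia was the highest for 152 and E2 the lowest for 156. Over all 8810 genes hypoxia was the lowest for 1519 and the highest for 1246, and E2 the highest for 1077 and the lowest for 1218. As a further measure, E2 was set against the mean log2 value of the hypoxia, DPN and In-Cl libraries. By that measure 123 genes were at least 25% higher in place of 354, and 169 at least 20% lower in place of 293. The hypoxia library is part of this reference too.

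Among characterised genes of high level, the one farthest below hypoxia was Cbr1, carbonyl reductase 1, which reduces quinones and also converts prostaglandins. Its level was 2816 with E2 and 5579 in hypoxia alone, against 3052 (In-Cl), 4167 (DPN) and 4319.6 (control). E2 was the lowest and hypoxia the highest of the 5, and the E2 level was 1.98-fold lower than in hypoxia (log2 -0.99, interval -1.05 to -0.92). Against the mean of the 3 other hypoxic libraries the difference was -0.56. Cbr3, a related reductase beside it on chromosome 11, differed by -0.05 (interval -0.39 to 0.30), and Setd4 on its other side by -0.02. The GRCr8 gene table lists near copies of Cbr1 (Cbr1l1, Cbr1l2, Cbr1l3) next to it, so its reads may be split or shared among copies, and its value is uncertain in that respect.

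Further named lower genes encode enzymes or transporters. Asl, argininosuccinate lyase of the urea cycle and of arginine synthesis, had 583 with E2 and 969.8 in hypoxia alone, against 581 (In-Cl), 966 (DPN) and 828 (control), a difference of -0.73 (interval -0.89 to -0.58). Its level with E2 was close to that with In-Cl, and the other 3 libraries were higher. Gusb, the lysosomal beta-glucuronidase next to Asl in the file, was 1.37-fold lower (log2 -0.45) and again low with In-Cl (668 with E2, 679.8 with In-Cl, 913 in hypoxia). Xdh, xanthine dehydrogenase, which makes uric acid from purines, had 150.1 with E2 and 247 in hypoxia alone, against 439 (In-Cl), 253 (DPN) and 114 (control). Its E2 level was below all 3 other hypoxic libraries and above the control (log2 -0.71, interval -1.03 to -0.41). Slc26a1, a sulfate transporter, was at 120.3 with E2, the lowest of the 5, and at 230.2 in hypoxia (log2 -0.93).

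Some lower genes stood far above the control in hypoxia, with E2 between the pair. Rasl2-9, a copy of the nuclear transport GTPase Ran, had 635 with E2 and 1049 in hypoxia alone, against 531 (In-Cl), 776 (DPN) and 110.2 (control). The E2 level was 1.65-fold below hypoxia (log2 -0.72, interval -0.87 to -0.58), yet In-Cl and E2 both stayed far above the control, and against the mean of the 3 other hypoxic libraries the difference was -0.25. Ran itself differed by -0.02, and reads of such near-identical copies may be misassigned. Notch4, a Notch receptor best known from endothelium, had 169 with E2 and 443 in hypoxia alone, against 183 (In-Cl), 322 (DPN) and 129 (control), which put E2 2.62-fold below hypoxia (log2 -1.39, interval -1.67 to -1.13). Fam229b showed the same order, at 62.2 in the control, 187 in hypoxia and 98 with E2 (log2 -0.92). Hic2, a transcriptional repressor that was picked after its value was seen, went from 9721 in hypoxia to 7136 with E2 (log2 -0.45, interval -0.49 to -0.40), with the control at 6025 and In-Cl at 9627.

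For another set of lower genes E2 was below every other library. Ankrd16, an ankyrin repeat protein, was at 67.5 with E2 and between 86.4 and 132 in the rest (log2 -0.96). Ino80b, a subunit of a chromatin remodelling complex, was at 633 with E2, 657 with In-Cl and 995 in hypoxia (log2 -0.65, interval -0.80 to -0.50). Egfl7, a secreted factor of vessel growth, was at 161 with E2 and 264 in hypoxia (log2 -0.71). Scn3b, a sodium channel beta subunit, and Gpr149, an orphan receptor, differed by -0.63 and -0.63 from hypoxia. In the 3 other libraries Scn3b lay between 243 and 307, against 205 with E2. Tcea3, a transcription elongation factor, Zdhhc14, a palmitoyltransferase, and Rp9 were also lowest with E2, with differences of -0.67, -0.69 and -0.73.

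**Figure D2:**
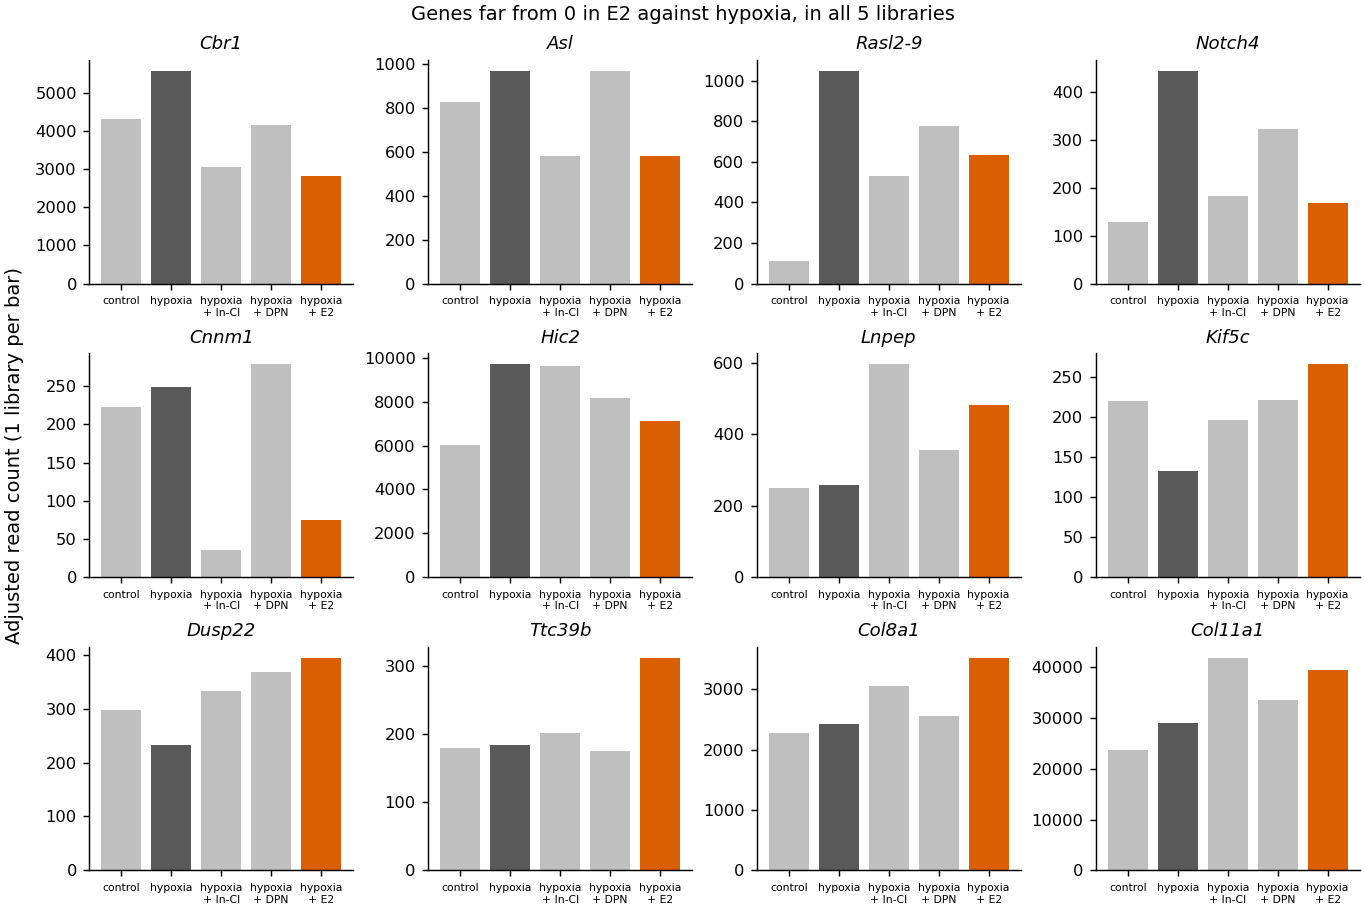
Adjusted read counts of 12 genes in the 5 libraries, 1 library per bar, with hypoxia in dark grey and E2 in orange. E2 is the lowest bar for Cbr1 and the highest for Kif5c, Dusp22, Ttc39b and Col8a1, while for Notch4 and Rasl2-9 it lies between the control and hypoxia.

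Some of the strongest differences came in neighbouring genes, a pattern noticed after the values were seen. Of the 46 genes at least 1.5-fold lower, 8 had another such gene within 5 rows in the order of the files, as did 5 of the 45 higher genes. The lower ones were Cnnm1 with Entpd7, Notch4 with Ager, Myh4 with Myh8, and LOC257642 with LOC310926. No rate for other genes was computed, so these counts are a description only. On chromosome 1, Cnnm1, a membrane protein of the magnesium-handling CNNM family, had 74.4 with E2 and 249.6 in hypoxia alone, against 35.4 (In-Cl), 279 (DPN) and 223 (control). E2 (log2 -1.73, interval -2.16 to -1.35) and In-Cl were low together, and DPN was not. Entpd7, a nucleotide-cleaving enzyme a few genes away, had 113 with E2 and 300.3 in hypoxia alone, against 87.7 (In-Cl), 342 (DPN) and 303 (control), with E2 at -1.40 (interval -1.75 to -1.08). Nkx2-3, a homeobox gene between them, had about 44 reads in hypoxia, 12 with E2 and 6 with In-Cl. Got1 and Slc25a28, which lie in the same stretch, differed by only -0.07 and -0.09. Hpse2, on the other side of Cnnm1, had about 10 reads in hypoxia and 2 with E2, too few for a narrow interval (log2 -1.71, interval -5.47 to -0.01).

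On chromosome 20, Notch4, Gpsm3 and Ager, the receptor for advanced glycation end products, lie close together in the major histocompatibility region. Ager had 101 with E2 and 201 in hypoxia alone, against 89.8 (In-Cl), 138 (DPN) and 72.4 (control), so hypoxia was the highest and E2 lay 1.97-fold below it (log2 -0.98, interval -1.35 to -0.62). Gpsm3, a regulator of G proteins, had about 56 reads in hypoxia and 31 with E2 (log2 -0.74), and Pbx2, between Gpsm3 and Ager, differed by -0.25. On chromosome 10, the skeletal myosin heavy chains Myh4 and Myh8 were low in E2 and DPN. Myh4 had 60.1 with E2 and 169 in hypoxia alone, against 212 (In-Cl), 51.4 (DPN) and 186 (control) (log2 -1.48, interval -1.96 to -1.04). Myh8 had 78.7 with E2 and 176 in hypoxia alone, against 239.9 (In-Cl), 51.4 (DPN) and 183 (control) (log2 -1.15). Myh1, Myh2 and Myh3 of the same cluster differed by -0.23, -0.16 and -0.23, and since these genes are near copies, the split of reads among them is uncertain.

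LOC310926, the gene farthest below hypoxia of all, and LOC257642 lie beside the ribosomal RNA rows in the files. LOC310926 was at 36357 in hypoxia and 8652 with E2 (log2 -2.07), and LOC257642 at 83413 and 52063 (log2 -0.68). The adjacent Rn18s, Rn28s and Rn45s rows differed by -0.49, -0.51 and -0.39, and the Rn5-8s row beside them by -5.48 (13691 in hypoxia and 307 with E2). Other Rn5-8s rows, elsewhere in the files and at much lower levels, differed by -0.74, -0.685 and -0.74. What part ribosomal RNA content has in the values of LOC310926 and LOC257642 was not tested.

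**Figure D3:**
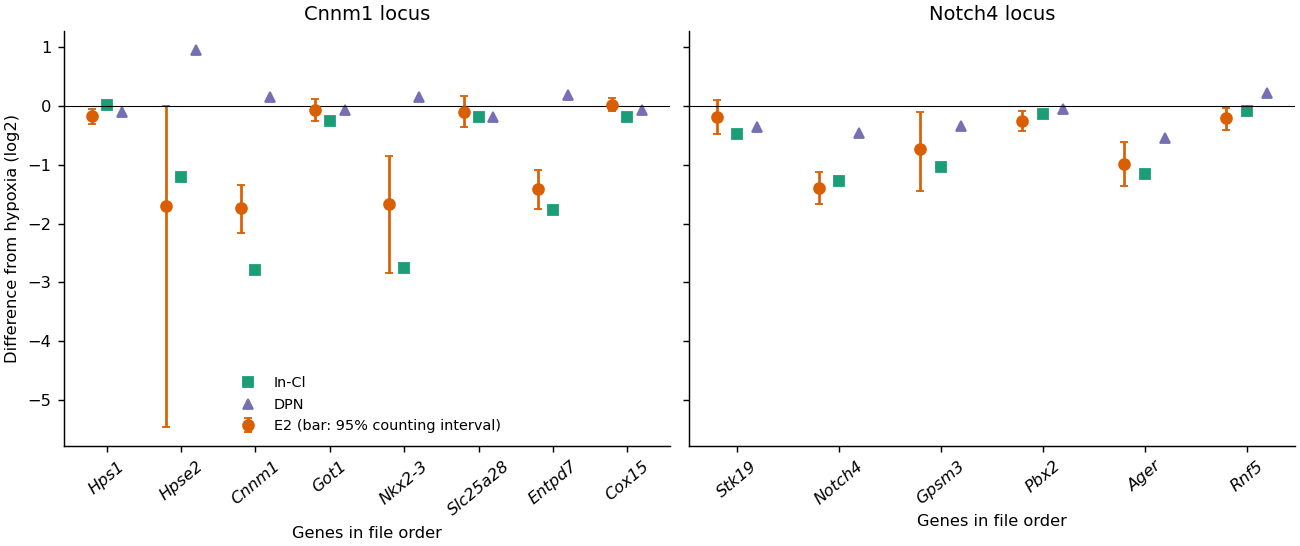
Differences from hypoxia on the log2 scale for neighbouring genes, in file order, around Cnnm1 and around Notch4, with circles for E2 (bars are 95% counting intervals), squares for In-Cl and triangles for DPN, all against the same hypoxia library. Cnnm1, Nkx2-3 and Entpd7 lie below -1 with E2 and with In-Cl, as does Hpse2 with few reads, while Got1 and Slc25a28 between them lie closer to 0, at -0.07 and -0.09 with E2 and -0.25 and -0.18 with In-Cl.

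Among the genes higher with E2, Adam11, a catalytically inactive member of the ADAM membrane proteins, was the only one past 2-fold, with 192 with E2 and 77.6 in hypoxia alone, against 297 (In-Cl), 53.5 (DPN) and 83.3 (control) (log2 1.29, interval 0.91 to 1.72). E2 and In-Cl were high, and control, hypoxia and DPN were low. Kif5c, a kinesin motor of cargo transport, had 266 with E2 and 132 in hypoxia alone, against 196 (In-Cl), 220.5 (DPN) and 219 (control), so E2 was the highest and hypoxia the lowest (log2 0.999, interval 0.69 to 1.33). Ttc39b had 312 with E2 and 184 in hypoxia alone, against 202 (In-Cl), 175 (DPN) and 179 (control), and here E2 alone stood apart from 4 similar libraries (log2 0.76, interval 0.49 to 1.04). Against the mean of the 3 other hypoxic libraries Ttc39b differed by 0.74, nearly the same value. Ttc39b has neighbours in the file order that were also at least 1.5-fold higher, Zdhhc21 (log2 0.66) and Nfib (log2 0.62), both highest with In-Cl. Mroh1 was at 146 with E2, 76.5 in hypoxia and 113 in the control (log2 0.92).

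Some of the named higher genes encode signalling proteins or their partners. Spred1, an inhibitor of the Ras pathway, had 217 with E2 and 113 in hypoxia alone, against 175 (In-Cl), 189.5 (DPN) and 144 (control) (log2 0.94, interval 0.60 to 1.30). Here E2 was the highest library and hypoxia the lowest. Dusp22, a phosphatase of signalling kinases, had the same order, 232 against 395 (log2 0.76). Tead1, the DNA-binding partner of the Hippo pathway coactivators, was at 2074 with E2 and 2063 with In-Cl, above 1463 in hypoxia (log2 0.50), and differed by 0.28 from the mean of the 3 other hypoxic libraries, short of 25% higher. Mcc, named for colorectal cancers in which it is mutated, was at 1906 with E2 and 1319 in hypoxia (log2 0.53, interval 0.43 to 0.64), but differed by only 0.17 from that mean.

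Others named are enzymes, transporters and membrane proteins. Alad, the enzyme of heme synthesis that makes porphobilinogen, had 309.6 with E2 and 187 in hypoxia alone, against 223 (In-Cl), 212 (DPN) and 369 (control) (log2 0.72, interval 0.46 to 1.01). Its E2 level lay between hypoxia and the control and above both other ligand libraries. Slc4a7, a sodium bicarbonate cotransporter, had 353 in the control, 186 in hypoxia and 312 with E2 (log2 0.74). Prkaa2, a catalytic subunit of the energy sensor AMPK, was at 117 in hypoxia, 201 with E2 and 211 with In-Cl (log2 0.78). For Slc4a7 and Prkaa2 all 3 ligand libraries were above hypoxia, and against the mean of the 3 other hypoxic libraries E2 differed by 0.28 and 0.28. Lnpep, a membrane aminopeptidase, Cxadr, a cell adhesion receptor, and Tanc2, a scaffold protein, differed by 0.91, 0.69 and 0.96, and each was highest with In-Cl. Cxadr differed by only 0.19 from the mean of the 3 other hypoxic libraries. Abcg3l3, an ABC transporter gene, and Ubxn7, an adaptor of protein degradation, were highest with E2 (log2 0.66 and 0.83).

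LOC102723236, an uncharacterised locus picked after its value was seen, was the most abundant gene at least 1.5-fold higher, with 1767 with E2 and 1018 in hypoxia alone, against 800.2 (In-Cl), 1838 (DPN) and 2037 (control) (log2 0.80). E2 and DPN were near the control, and hypoxia and In-Cl were low.

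The estrogen receptors themselves gave few reads. Esr1, which encodes receptor alpha, was at 9.29 in hypoxia and 13 with E2, Esr2 (receptor beta) at 14.4 and 6.79, and Gper1 (the membrane receptor) at 7.2 and 3.38. All 3 counting intervals included 0, with too few reads to see a difference. Esrra, a related orphan receptor and the 1 of 6 listed receptors above the level limit, differed by -0.05 (interval -0.23 to 0.14). The median of 19 receptor coregulators with enough reads was -0.03. Of these, 1 was at least 25% higher and 0 lower (4.02% and 3.33% over all genes). That one was Ncoa2, a coactivator, at 364 with E2, 283 in hypoxia and 455 with In-Cl (log2 0.36, interval 0.13 to 0.60). Med1, the Mediator subunit that contacts nuclear receptors, and Ncoa1 differed by 0.24 and 0.18, and the prohibitins Phb and Phb2 by -0.17 and -0.13.

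Genes described elsewhere as estrogen targets showed no shared direction. Of 28 measured, 1 was at least 25% higher and 0 lower (4.02% and 3.33% over all genes). The counting interval lay above 0 for 3 and below 0 for 5 (16.1% and 15.6% over all genes). The median was 0.0045 against 0.002 over all genes. The higher one was Mybl1, a MYB-family transcription factor, at 268 in hypoxia and 338 with E2 (log2 0.34), with the control at 399. Ckb, the brain creatine kinase and a classical estrogen-induced protein, was at 541 with E2 and 676 in hypoxia (log2 -0.32, just short of 20% lower). Tgfa, a growth factor, and Hspb1, a small heat shock protein, differed by -0.24 and -0.23. Myc, Ccnd1 (cyclin D1) and Vegfa, targets with ample reads, differed by 0.01, -0.01 and 0.00, and Xbp1 and Cyp1b1 by 0.07 and 0.16. Egr1, at 0.28, had an interval of -0.14 to 0.73 and few reads.

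The series title names cyclooxygenase-2, the enzyme encoded by Ptgs2. Its level was 306 with E2 and 258 in hypoxia alone, against 218 (In-Cl), 222 (DPN) and 111 (control), so E2 was the highest of the 5 (log2 0.24, interval -0.01 to 0.50), and the interval reached below 0, so no difference was detectable at this depth. With In-Cl and DPN the values against the same hypoxia library were -0.24 and -0.22. The doses differ between E2 and the other compounds, so these stand side by side without comparison. Among 12 prostanoid genes with enough reads, 0 were at least 25% higher and 4 lower, against 4.02% and 3.33% over all genes, with a median of -0.10. They were Cbr1 and 3 genes of prostanoid signal and removal. Ptger1, a prostaglandin E receptor, was at 253 in hypoxia and 184 with E2, the lowest of the 5 (log2 -0.46, interval -0.75 to -0.17). Slco2a1, the prostaglandin uptake transporter, was at 239 and 178 (log2 -0.42). Ptgr1, which breaks prostaglandins down, was at 239 and 182 (log2 -0.39). Of the synthases, Ptges differed by -0.09 and Ptges2 by 0.11, both with intervals that included 0. With In-Cl and DPN the medians of the 12 genes against the same hypoxia library were -0.29 and -0.20. The E2 median was -0.0575 against the mean of the hypoxia, DPN and In-Cl libraries.

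Of 18 carbonyl and aldo-keto reductases, the class of Cbr1, 0 were at least 25% higher and 2 lower (4.02% and 3.33% over all genes). Besides Cbr1 this was Dcxr, a sugar reductase, at 170.3 in hypoxia, 129 with E2 and 113 with In-Cl (log2 -0.40, interval -0.75 to -0.05). The abundant Akr1b1 and Akr1a1 differed by -0.07 and -0.06. The median of the class was -0.06, and it was 0.015 against the mean of the 3 other hypoxic libraries.

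**Figure D4:**
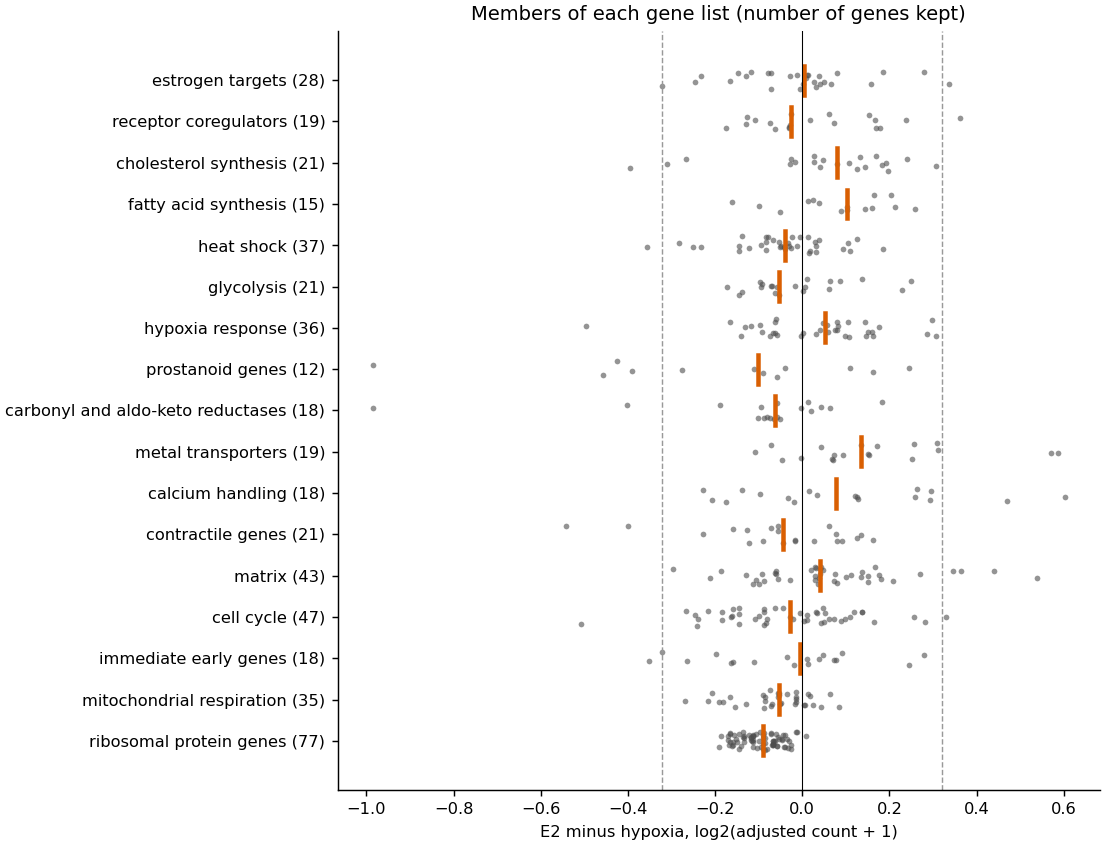
Each grey point is 1 gene of a list, placed by its E2 minus hypoxia difference on the log2 scale, with the number of measured genes in brackets, an orange bar at the list median and dashed lines at 25% higher and 20% lower. Most members lie between the dashed lines, Cbr1 is the far left point of 2 lists, and the ribosomal protein genes form a tight group with a median of -0.09.

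Cholesterol synthesis runs from acetyl units through mevalonate and squalene to the sterol ring. Of its 21 enzymes, 0 were at least 25% higher and 1 was lower (background 4.02% and 3.33%). The counting interval lay above 0 for 7 and below 0 for 2 (background 16.1% and 15.6%). The median was 0.08. E2 was the highest of the 5 libraries for 7 genes and the lowest for 3 (12.2% and 13.8% over all genes). Cyp51, the sterol demethylase, had 4254 with E2 and 3781 in hypoxia alone, against 3637 (In-Cl), 3955 (DPN) and 3805 (control) (log2 0.17, interval 0.10 to 0.24), with E2 the highest. Hmgcs1, which acts early in the pathway, was also highest with E2 and differed by 0.14 from hypoxia. Ggps1, which makes the prenyl chain used to anchor small GTPases, differed by 0.31 (interval 0.08 to 0.55), and Acat2 by 0.24.

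At the sterol end the values went both ways. Tm7sf2, a sterol reductase, was the lower gene at 139 with E2 and 183 in hypoxia (log2 -0.40), but In-Cl and DPN were lower still and its difference was 0.036 against the mean of the 3 other hypoxic libraries. Ebp and Dhcr7, which act late in the pathway, differed by -0.31 (interval -0.67 to 0.05) and -0.27 (interval -0.48 to -0.05). E2 was the lowest library for both, but the interval of Ebp included 0. Of 14 genes of sterol uptake and control, 0 were at least 25% higher and 1 was lower (4.02% and 3.33% over all genes). The lower one was Mylip, a ubiquitin ligase (log2 -0.38, interval -0.81 to 0.06). Stard4, a sterol carrier, and Srebf1, a transcription factor of lipid synthesis, differed by 0.22 and 0.16, both with intervals that included 0. Fatty acid synthesis had 0 of 15 genes past either limit, with a median of 0.10. That median was 0.010 against the mean of the 3 other hypoxic libraries. It was 0.0505 once the median of genes of similar genomic span was taken off. The interval lay above 0 for 6 and below 0 for 1 (16.1% and 15.6% over all genes). Acsl3, which activates fatty acids, and the elongases Elovl5 and Elovl6 differed by 0.26, 0.21 and 0.20.

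Genes of the hypoxia response were about as high with E2 as in hypoxia alone. Of 36, 0 were at least 25% higher than in hypoxia and 1 was lower (4.02% and 3.33% over all genes). The interval lay above 0 for 13 and below 0 for 9 (16.1% and 15.6% over all genes), and the median was 0.05. E2 was the highest of the 5 libraries for 12 and hypoxia for 9 (12.2% and 14.1% over all genes). The list median of hypoxia minus control was 2.56 (log2), so the shares over all genes are not a like background here. Ero1a, which forms disulfide bonds in secreted proteins, had 11354 with E2 and 9312 in hypoxia alone, against 9260.3 (In-Cl), 9095 (DPN) and 797 (control), with E2 above 3 nearly equal hypoxic libraries (log2 0.29, interval 0.25 to 0.33). Ak4, a mitochondrial adenylate kinase, and Car12, a carbonic anhydrase, differed by 0.31 and 0.30. Cox4i2, the low-oxygen form of a cytochrome oxidase subunit, was the lower one, with 272 with E2 and 385 in hypoxia alone, against 283 (In-Cl), 354 (DPN) and 16.8 (control) (log2 -0.50, interval -0.73 to -0.26). E2 and In-Cl were both below hypoxia and far above the control.

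Of 21 glycolysis genes, 0 passed the limit in either direction (4.02% and 3.33% over all genes) and the median was -0.05. Slc16a1, a monocarboxylate transporter, and Pfkfb3, which makes an activator of phosphofructokinase, differed by 0.25 and 0.23, and the enzymes Aldoa and Gapdh by -0.17 and -0.14. The hypoxia element core ACGTG, searched on both strands, was in 18 of the 28 promoters found for the hypoxia response list (64.3%) and in 10 of 19 for glycolysis (52.6%), against 27.6% of the promoters found for all genes studied and 19.3% of all promoters in the table.

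Extracellular matrix genes are among the most abundant in these cells. Of 43, 4 were at least 25% higher with E2 and 0 lower (4.02% and 3.33% over all genes), and the median was 0.04. It was -0.007 once the median of genes of similar genomic span was taken off. Col11a1, a fibrillar collagen chain, had 39511 with E2 and 29104 in hypoxia alone, against 41967 (In-Cl), 33548 (DPN) and 23804 (control) (log2 0.44, interval 0.42 to 0.46). In-Cl was the highest, E2 next, and the control the lowest, and against the mean of the 3 other hypoxic libraries the difference was 0.20, short of 25% higher. Col8a1, a short-chain collagen of vessels, had 3528 with E2 and 2429 in hypoxia alone, against 3060.4 (In-Cl), 2550.3 (DPN) and 2281 (control) (log2 0.54, interval 0.46 to 0.62), with E2 the highest. Spp1, osteopontin, had 10734 with E2 and 8451 in hypoxia alone, against 9856 (In-Cl), 9101 (DPN) and 9521 (control), where E2 was the highest and hypoxia the lowest (log2 0.34). Omd, a small proteoglycan, was at 1068 in hypoxia and 1375 with E2 (log2 0.36), but In-Cl and DPN reached 1803 and 1837, so its difference from the mean of the 3 other hypoxic libraries was -0.15.

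Other matrix genes lay slightly the other way. Eln, elastin, had 478446 with E2 and 544660.0 in hypoxia alone, against 523924 (In-Cl), 503977 (DPN) and 508891 (control), the lowest with E2 (log2 -0.19, interval -0.19 to -0.18). Mfap5, a microfibril protein, and Fmod, fibromodulin, differed by -0.30 and -0.21. None of these reached the 20% limit.

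Of 21 contractile genes, 0 were at least 25% higher and 2 lower (4.02% and 3.33% over all genes), with a median of -0.04. The median was 0.057 against the mean of the 3 other hypoxic libraries and 0 under quantile normalization, so its sign depended on the reference. Actg2, the gamma actin of smooth muscle, had 199 with E2 and 290.0 in hypoxia alone, against 136 (In-Cl), 205 (DPN) and 244 (control) (log2 -0.54, interval -0.82 to -0.27), so hypoxia was the highest and In-Cl the lowest. Ppp1r14a, which inhibits myosin phosphatase, was at 339.6 in hypoxia, 257 with E2 and 215 with In-Cl (log2 -0.40). Mylk, the kinase that starts contraction, and Myh11, smooth muscle myosin, differed by 0.16 and 0.12. The 9 smooth muscle markers above the level limit had a median of -0.07 with E2, -0.39 with In-Cl and -0.31 with DPN, all against the same hypoxia library.

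Calcium handling had 2 of 18 genes at least 25% higher and 0 lower (4.02% and 3.33% over all genes), and the interval lay above 0 for 7 and below 0 for 1 (16.1% and 15.6% over all genes). Cacna2d1, a calcium channel subunit, had 526 with E2 and 346 in hypoxia alone, against 473 (In-Cl), 403 (DPN) and 315 (control) (log2 0.60, interval 0.40 to 0.81), with E2 the highest, and RGD1565355 near it in the file order was also higher (log2 0.64). Trpc1, a cation channel, had 200.4 in hypoxia, the lowest, 278 with E2 and 290.0 with In-Cl (log2 0.47). The calcium pump Atp2b4 differed by 0.29, and Pln, which restrains the store pump, by -0.23 with an interval of -0.71 to 0.26. The median of the list was 0.08. It was 0.00075 with the median of genes of similar span taken off (the list has a median span of 102 kb) and 0.0027 against the mean of the 3 other hypoxic libraries.

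Metal transporters had a list median of 0.13, with 2 of 19 genes at least 25% higher, 0 lower, and intervals above 0 for 8 and below 0 for 1, against 4.02%, 3.33%, 16.1% and 15.6% over all genes. Against the mean of the 3 other hypoxic libraries the median was 0.045. Atp7a, the copper export pump, had 360.3 with E2 and 239.7 in hypoxia alone, against 409 (In-Cl), 298 (DPN) and 276 (control) (log2 0.59, interval 0.34 to 0.84). Slc39a9, a zinc transporter, had 419.5 with E2 and 282 in hypoxia alone, against 409 (In-Cl), 339 (DPN) and 332 (control), where E2 was the highest and hypoxia the lowest (log2 0.57). Trpm7, a magnesium channel with a kinase domain, differed by 0.31. For 10 of the 19 genes the hypoxia library was the lowest of the 5 (17.2% over all genes). Slc30a1, a zinc exporter counted with the metallothioneins, was at 292 against 228 (log2 0.35), while Mt2A, a metallothionein, was at 207 against 256 (log2 -0.31, interval -0.59 to -0.03).

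Of 37 heat shock genes, 0 were at least 25% higher and 1 lower (4.02% and 3.33% over all genes). Intervals lay above 0 for 3 and below 0 for 11 (16.1% and 15.6% over all genes). The median was -0.04, and -0.001 once the median of genes of similar genomic span was taken off. The 5 small heat shock proteins, chaperones that hold unfolded proteins, had a median of -0.23. Hspb6 was the lower gene, at 502 in hypoxia and 391 with E2 (log2 -0.36). DPN and In-Cl were lower still (311 and 334), so that against the mean of the 3 other hypoxic libraries Hspb6 differed by 0.067. Cryab, alpha-B crystallin, had 8515 with E2 and 10134 in hypoxia alone, against 8604 (In-Cl), 9403 (DPN) and 14950.5 (control), lowest with E2 (log2 -0.25, interval -0.29 to -0.21). Hspa1b, the inducible HSP70, differed by -0.28 and its constitutive relative Hspa8 by -0.05. The HSP90 genes Hsp90aa1 and Hsp90ab1 differed by 0.03 and -0.05.

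Of 47 cell cycle genes, 1 was at least 25% higher and 1 lower (4.02% and 3.33% over all genes), with a median of -0.03. Ccne1, cyclin E1, was at 312 in hypoxia, 392 with E2 and 629 in the control (log2 0.33, interval 0.11 to 0.56), and Ccne2 differed by 0.28. Cdt1, which licenses DNA for replication, was at 232 and 163, the lowest of the 5 (log2 -0.51). Of 18 immediate early genes, 0 were at least 25% higher and 2 at least 20% lower (4.02% and 3.33% over all genes). The lower ones were Klf2 (617 in hypoxia, 484 with E2, log2 -0.35) and Jund (log2 -0.32), and both were highest in hypoxia. Of 13 inflammation genes, 0 were at least 25% higher and 1 lower (4.02% and 3.33% over all genes). The lower one was C4a, a complement component, at 334 with E2 and 452 in hypoxia alone (log2 -0.44). The other libraries had 423 (In-Cl), 699.9 (DPN, the highest) and 238 (control). Il6, a cytokine, and Il1r1, a receptor, differed by 0.16 and 0.24. Of 10 interferon genes, 0 were at least 25% higher and 1 lower (4.02% and 3.33% over all genes). That one was Stat2, a transducer of interferon signals, which was lowest with E2 (log2 -0.33, interval -0.53 to -0.12).

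Ribosomal protein genes lay together slightly below 0. All 77 were within both limits. The interval lay below 0 for 73 and above 0 for 0, against 15.6% and 16.1% over all genes. These genes have many reads and so narrow intervals, and small differences can leave 0 outside them. The list median was -0.09, which became 0.0027 against the mean of the 3 other hypoxic libraries. For 69 of the 77 hypoxia was the highest of the 5 libraries (14.1% over all genes). With In-Cl and DPN the medians against the same hypoxia library were -0.25 and -0.07. The 35 respiratory chain genes had a median of -0.05. Their intervals lay below 0 for 12 and above 0 for 0 (15.6% and 16.1% over all genes).

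The difference varied with the genomic span of genes, the distance from start to end in RefSeq on GRCr8, known for 8695 genes (98.7%). In 4 equal groups from the shortest to the longest, the median difference was -0.06, -0.02, 0.025 and 0.07. At least 25% higher were 28, 50, 81 and 185 genes, and at least 20% lower 120, 77, 51 and 38. With In-Cl the medians ran from -0.14 to 0.14 and with DPN from -0.04 to 0.04, against the same hypoxia library. Ribosomal protein genes are short, with a median span of 3.13 kb, and their median was -0.03 once the median of genes of similar span was taken off. The part of RNA quality, priming or unspliced RNA in this trend was not tested.

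**Figure D5:**
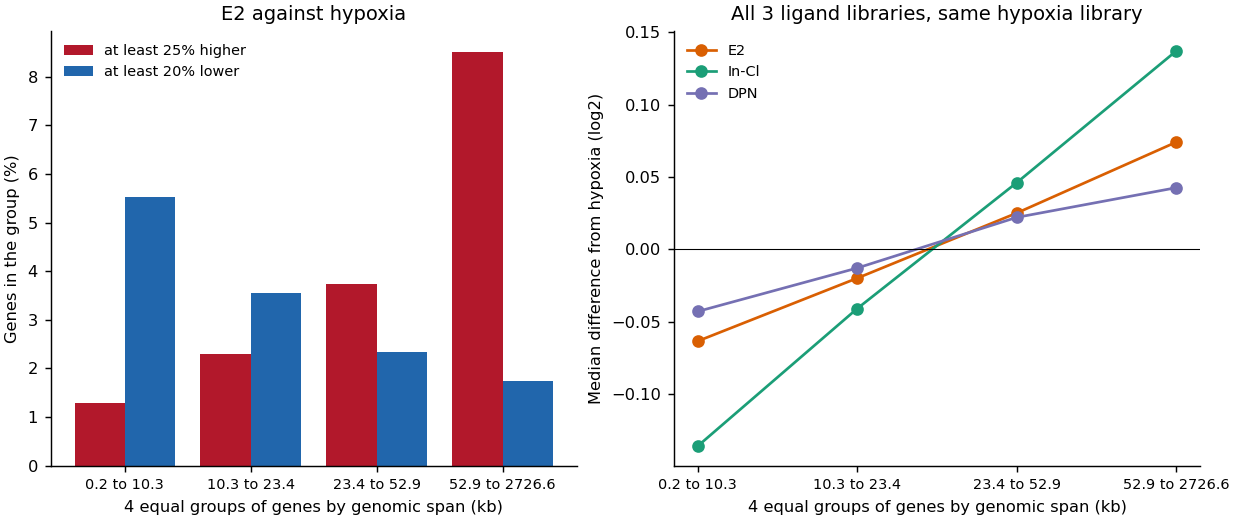
Left, the percentage of genes at least 25% higher (red) or at least 20% lower (blue) with E2 in 4 equal groups by genomic span in kb. Right, the median difference from hypoxia on the log2 scale in the same groups for the E2, In-Cl and DPN libraries. In the longest group 8.51% were higher and 1.75% lower, in the shortest 1.29% and 5.52%, and the medians of all 3 libraries run upward with span.

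The SD of the difference over the 8810 genes was 0.185 for E2 against hypoxia, 0.230 for DPN and 0.243 for In-Cl, and 0.489 for hypoxia against the control. Past these limits in either direction were 647 genes for E2, 570 for DPN and 1385 for In-Cl, all measured against the one hypoxia library. E2 differed from DPN past them in 530 genes and from In-Cl in 886. With 1 library each, no part of these numbers can be assigned to the compounds rather than to the libraries.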

How the data were processed

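Total RNA of 5 cultures, extracted with Trizol, went into strand-preserving SMARTer libraries, per the labels' protocols. The authors deposited 1 table per library of log2 values per gene. TopHat, edgeR and build rn6 are named in the submitters' processing notes, while the counting program, annotation, use of strand and versions are not stated there (not given in the sources used here). Each value is log2 of an adjusted count plus 1. Low values come in equal steps (89.6% within 0.2 read of whole steps in the control, 99.1% with E2, 100% in the others), and dividing by the step gave approximate reads. No count model was fitted.

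Differences, counting intervals, medians and counts were computed with Python 3.11.15, numpy 2.4.6, pandas 2.3.3 and scipy 1.17.1, and drawn with matplotlib 3.10.9. The scripts were tested on simulated data. Named genes were the 15 highest and 15 lowest by the interval bound nearest 0, the 10 highest and 10 lowest among genes where E2 lay outside the other 4 libraries, 3 at each end of each list and every member of 4 lists, leaving out uncharacterised and small RNA genes. A few genes that this rule names are not reported here. Further genes that show a locus or a family were picked after their values were seen, among them Hic2, Gusb, Ran, LOC102723236 and members of the lists outside this rule. The genes studied and the 35 lists (8 of them cell markers) were chosen with earlier results of these data known. Alternatives changed scaling, low-value filter, rows per symbol, pseudocount, low values and reference library. Subtracting the median of genes of similar span was chosen after seeing the data.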

Additional observations from a re-analysis of the deposited data

How the results depend on the processing

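Over the alternatives, 2205 of the recomputed values of single genes stayed within their counting interval and 136 moved outside it. A further 3, whose interval excluded 0, changed sign. Changes of sign inside an interval that included 0 were counted as staying. Other low-value filters leave the difference of an included gene as it was, so values under those could not move. Against the mean of the hypoxia, DPN and In-Cl libraries, 174 genes stayed and 101 moved, and the 3 changes of sign counted above fell here. Of the recomputed counts and medians, 290 stayed within a tolerance against 34 that moved. The tolerance was 1.5-fold for counts and the span contrast, and for a list median the 95% order-statistic interval over its genes, which is wide for short lists and can include 0. Of 267 recomputed list medians, 33 had the opposite sign, 14 of them against the mean of the hypoxia, DPN and In-Cl libraries. The counts followed the filter on low values. With a mean level of at least 30, at least 1.5-fold higher were 113 genes and lower 142, and at least 25% higher were 555 and at least 20% lower 561. With a mean level of at least 1000 these were 1, 3, 40 and 14, and E2 lay outside the range of the other 4 libraries for 727 genes. With no filter they were 943, 1013, 1556 and 1679, and 3773 genes lay outside.

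Against the mean of the hypoxia, DPN and In-Cl libraries, at least 1.5-fold higher were 14 genes and lower 13, and at least 25% higher were 123 and at least 20% lower 169. The median of the longest of 4 groups by span minus that of the shortest was then 0.020. Medians were 0.010 for fatty acid synthesis, 0.015 for carbonyl reductases, 0.017 for respiration, 0.0027 for ribosomal, 0.016 for mitochondrial ribosomal and 0.068 for proteasome genes, 0.037 for histones, 0.134 for smooth muscle markers, 0.057 for contractile and -0.057 for inflammation genes. Tm7sf2 (0.036), Hspb6 (0.067) and Omd (-0.15) left their counting intervals and changed sign. Quantile normalization gave -0.034 for ribosomal protein genes. With the median of genes of similar span subtracted, an alternative chosen after seeing the data, the span contrast was 0.003, and medians were -0.001 for heat shock, -0.007 for matrix, -0.0105 for respiration, -0.0255 for ribosomal and 0.0115 for mitochondrial ribosomal genes. The cause of these shifts was not tested, except that the last alternative removes the span trend by construction.

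No paired analysis was possible because each condition has 1 library, and for the same reason no replicate was left out. Depth limits genes near the level limit, where the interval of Zfp418, for example, ran from -0.51 to 0.38.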

Other observations

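Genes of protein folding in the endoplasmic reticulum differed little between E2 and hypoxia. Of 27, 0 were at least 25% higher and 0 at least 20% lower (4.02% and 3.33% over all genes), with a median of -0.014. Atf6, a membrane-bound sensor of unfolded proteins, was at 1413 with E2 and 1159.9 in hypoxia alone, against 1386 (In-Cl), 1284 (DPN) and 1183 (control), with E2 the highest of the 5 (log2 0.28, interval 0.17 to 0.40). Dnajb9, a partner of the chaperone BiP, differed by 0.30, whereas Hspa5, which encodes BiP, differed by 0.00 and Atf4, a transcription factor of the stress response, by -0.03. The calcium-binding chaperone Calr was lowest with E2 (log2 -0.13, interval -0.17 to -0.10).

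Of 24 redox and metallothionein genes, 2 were at least 25% higher and 0 at least 20% lower (4.02% and 3.33% over all genes). Besides the zinc exporter Slc30a1 this was Srxn1, sulfiredoxin, which repairs peroxiredoxins, at 224 with E2 and 179 in hypoxia alone, against 213 (In-Cl), 222 (DPN) and 291 (control) (log2 0.33, interval 0.03 to 0.63). Hypoxia was the lowest of the 5. Among enzymes that act on steroid hormones, Ugt1a6, a transferase that attaches glucuronic acid, differed by 0.18 and Sts, steroid sulfatase, by -0.03. None of the 6 measured reached either limit. The 69 mitochondrial ribosomal protein genes had 2 members at least 25% higher and 0 at least 20% lower, the 34 proteasome genes 0 and 0 and the 10 histone genes 0 and 0, with medians of -0.044, -0.0085 and -0.038. Over all genes the shares at these limits were 4.02% and 3.33%.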
